A study of Homo sapiens with 4 samples.

Results

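The 6 gene neighbourhoods described here are ACTR3BP2 and ANKRD30BL on chromosome 2, CWH43 on chromosome 4, POTEA on chromosome 8, FAM74A1 on chromosome 9 and LOC441666 on chromosome 10. They lie beside centromeres or in duplicated sequence. Their members are all ATAC-seq regions that the authors' table assigns to one of these symbols by its nearest transcription start site (TSS), 115 of 58127 regions. The symbols were chosen by the accessibility difference between the groups, many of their regions having shifted one way, so that difference is described below and not tested. ATAC-seq counts insertions of a transposase into open DNA. It was run on the established human cell line MCF10A, mammary epithelium that forms no tumours, with a hairpin named shG8d against SNHG8d, an RNA of the noncoding gene SNHG8 (2 libraries, lettered A and B), and with the control hairpin shNC (2 libraries, A and B). Separate cultures are not stated for A and B, so the spread between them may be technical. Of 9 basal epithelial marker genes, 8 had a region within 1 kb of a TSS, and 0 of 8 marker genes of blood, endothelium, glia, liver, muscle and red cells had one.

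Pericentromeric DNA is made of satellite repeats and recently duplicated gene fragments, and in most cells it is packed as constitutive heterochromatin, which linker histone H1 helps to compact. Duplicated segments share long near-identical stretches, so a short read can match several copies. How the authors placed such reads is not given in the sources used here, and the counts of every region below are uncertain in this respect; its part in the differences was not tested. In bulk libraries fewer cells with an open region and less opening per cell cannot be told apart. Per the files and RefSeq, ACTR3BP2 and LOC441666 are transcribed pseudogenes and FAM74A1 is a long noncoding RNA gene. ANKRD30BL is a relative of ANKRD30A, a breast differentiation antigen gene. POTEA belongs to the primate POTE family of ankyrin repeat genes expressed in testis and tumours, and CWH43 is related to a yeast gene that remodels the lipid of GPI anchors.

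The table has 3 sets of regions, and its group labels are exchanged between them. There are 33913 common regions, 2755 regions specific to shG8d and 21459 specific to shNC. The normalized value of 1 read showed which physical library stands behind a column. The columns labelled shG8d are the deeper pair of libraries (8124488 and 8111839 reads in all regions) in common regions and the shallower pair (4457248 and 4344212 reads) in both specific sets. All comparisons below therefore run between the columns labelled shG8d and those labelled shNC within one set, and which label is right was not tested, so no direction is given to the knockdown itself. Depth and label cannot be told apart within a set. Values are normalized counts, and a region is called when limma's adjusted p, over all 58127 regions, is under 0.05. Differences are log2 of the value plus 1, labelled shG8d minus labelled shNC.

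The only member region annotated as a promoter is placed by the authors at the promoter of NR_031608, the accession of MIR663B, a microRNA gene inside ANKRD30BL, although its nearest start site and symbol are those of ANKRD30BL. A pericentromeric gene on chromosome 20, MIR663A, carries a microRNA of the same name. Their mature sequences are shown because regions annotated to both promoters are described below. RefSeq (GRCh38.p14, used for sequence and not to place regions) gives them at chr2:132256970-132256991 and chr20:26208243-26208264, both on the minus strand, 5′ to 3′, with the seed, bases 2 to 8, in capitals. The hairpin of miR-663b has the mature sequence in capitals.
hsa-miR-663b: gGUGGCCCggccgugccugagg
hsa-miR-663a: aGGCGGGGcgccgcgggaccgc
miR-663b hairpin: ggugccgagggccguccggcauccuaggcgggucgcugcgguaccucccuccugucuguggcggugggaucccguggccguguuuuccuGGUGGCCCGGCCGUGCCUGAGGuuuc
The seeds GUGGCCC and GGCGGGG are different, so the pair does not share a seed despite the common name.

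In common regions the neighbourhoods were less accessible under the shG8d label, and in regions specific to shG8d they were more accessible. Of 62 common regions, 48 were called lower and 2 higher in the libraries labelled shG8d, where 15.0% of all common regions were called lower and 10.7% higher. The median difference was −1.29, against −0.12 over all common regions. Of the 20 regions specific to shG8d, 19 were called higher, where 70.0% of that set were called higher, and the median difference was 1.75 against 1.20. Of the 33 regions specific to shNC, 9 were called higher, where 0.979% of that set were called higher, and 4 lower, where 13.2% were. Scaling to equal library totals gave 14 higher and 2 lower, where 1355 of all 21459 were called higher and 1220 lower. In the main fit the median difference of the 33 was 0.13 against −0.24. The values of the 2 labels did not overlap in 56 of 62 common regions, 20 of 20 regions specific to shG8d and 21 of 33 specific to shNC, where 67.1%, 95.0% and 53.4% of each whole set did not. Nothing is read from these counts, since the contrast chose the neighbourhoods. Leaving out one library left between 41 and 48 common regions called lower. The lower calls in regions specific to shNC depended more on single libraries. They numbered 10 without the shallower pair's A, 4 without its B, and 2 without either deeper library. The 9 higher calls there became 5 without the deeper pair's A and 4 without its B.

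**Figure D1:**
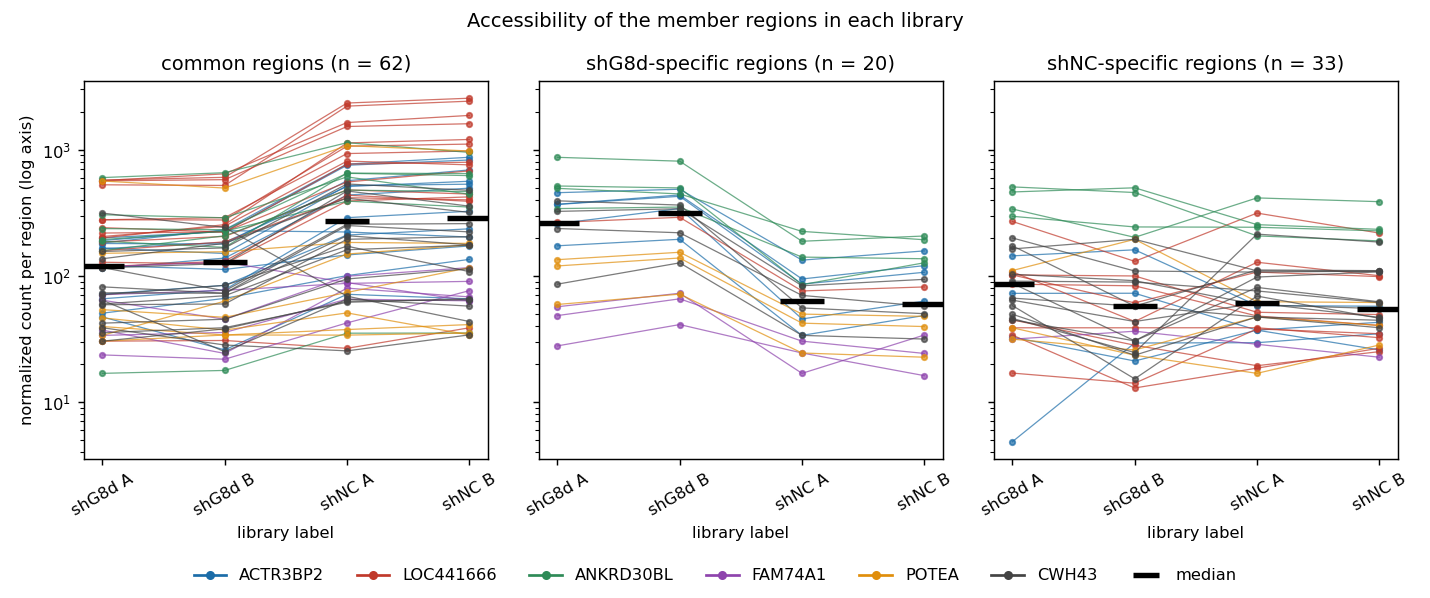
Normalized count (log axis) of each of the 115 regions in the 4 libraries, by region set and library label, with lines joining the values of a region, colours for the genes and a black bar at the median. In common regions the columns labelled shG8d had medians of 119 and 130 and those labelled shNC 272 and 288, and in regions specific to shG8d the medians were 262 and 315 for shG8d and 62.7 and 60.1 for shNC.

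By physical library, the shallower pair held more signal in 95 of the 115 regions, comprising 58 of 62 common, 20 of 20 shG8d-specific and 17 of 33 shNC-specific regions. Over the whole table it held more in 29620 of 58127 regions, comprising 19702 of 33913, 2738 of 2755 and 7180 of 21459. Nothing is read from these counts or from the shares below, since this contrast chose the neighbourhoods. The 76 called regions that were higher in it are the 48 common regions called lower, the 19 shG8d-specific and the 9 shNC-specific regions called higher, and 6 called regions were higher in the deeper pair. The neighbourhoods took 0.705% and 0.748% of all reads in regions in the shallower pair and 0.219% and 0.231% in the deeper pair (95% Wilson intervals 0.697 to 0.713, 0.740 to 0.756, 0.216 to 0.222 and 0.228 to 0.235, which cover counting error only). Shares are taken of a library's reads in all regions, so they go with equal library totals and not with the deposited scaling. With equal totals the median difference of all common regions was −0.47 in place of −0.12, already higher in the shallower pair. On that scale the mean share was 3.23 times as large in the shallower pair. For the lists of related duplicated genes and of flanking genes described below, the mean share was 1.07 and 1.21 times as large. Such sums weigh strong regions most, and the strongest of the related genes, at RGPD2 and TPTE, were higher in the deeper pair. By number, 102 of 158 common regions of the related genes were higher in the shallower pair and 56 in the deeper pair. The ratio was 3.98 for LOC441666, 3.94 for ACTR3BP2, 2.72 for ANKRD30BL, 2.41 for POTEA, 2.36 for CWH43 and 1.93 for FAM74A1. Libraries of a pair were close to each other, and the shares did not overlap between the pairs in any of the 6 neighbourhoods. How many other genes separate in this way was not counted. Of single regions over the whole table, 63.4% did not overlap.

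**Figure D2:**
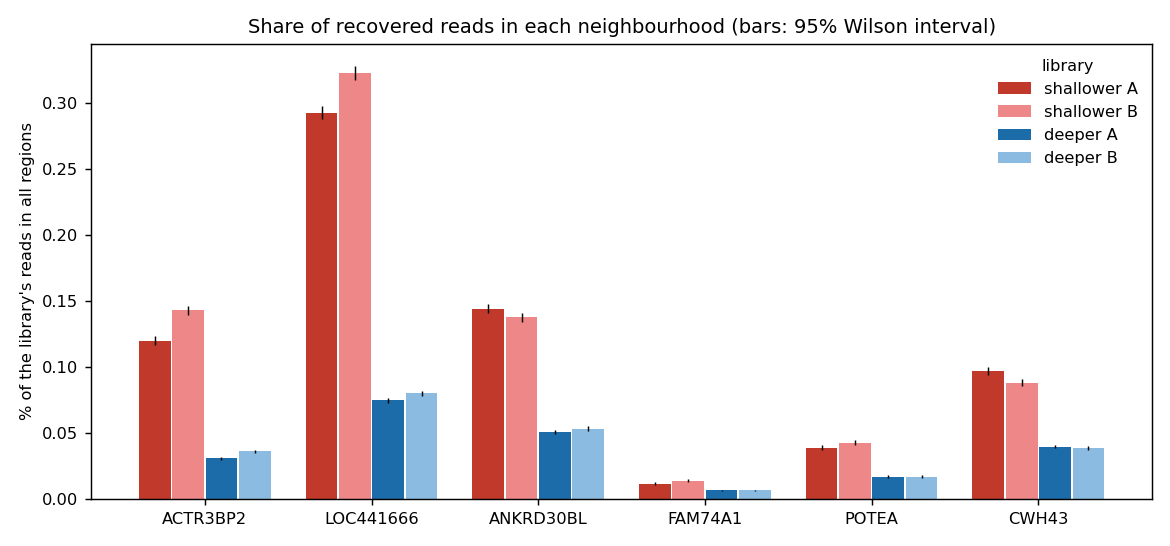
Share of each library's reads (percent of its reads in all regions) that fell in each of the 6 neighbourhoods, with the shallower pair left of the deeper pair and 95% Wilson intervals as bars. Both shallower libraries stand above both deeper libraries for each of these 6 genes, which this contrast chose. For LOC441666 the shares are 0.293% and 0.323% against 0.0747% and 0.0800%.

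LOC441666 had the highest median signal in common regions, while ANKRD30BL had the highest in both specific sets. The 15 common regions of LOC441666 had a median of 506 normalized counts over the 4 libraries, against 81.5 for all common regions, and 10 of them were in the top 1% of the set. All 15 differences were below 0 and 14 were called lower. The region 263579 bp from the TSS had 574 and 603 in the libraries labelled shG8d, against 2340 and 2555 in those labelled shNC. The region at 476201 bp had 199 and 254 in the libraries labelled shG8d, against 1130 and 1203 in those labelled shNC. In both, the labels are far apart and the libraries of a label close together. The log2 differences were −2.05 (SE 0.157) and −2.37 (SE 0.164). The one common region not called, at 150696 bp, had 30.3 and 30.7 under shG8d and 26.6 and 38.7 under shNC, so it was weak and overlapped. It lies nearer to the gene than the other 14.

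Signal around LOC441666 came in blocks, taken as runs of regions with gaps of at most 50 kb. The 3 blocks farthest from the gene, from 263579 to 502697 bp, held 21 of its 25 regions and all 17 that were called higher in the shallower pair. Their block medians of the difference, shallower minus deeper, were 1.75, 1.35 and 1.58. The block from 150696 to 184112 bp had a median of 0.07 over 3 regions. The single region specific to shG8d, at 332732 bp, had 265 and 291 under shG8d and 75.7 and 81.5 under shNC (difference 1.81, SE 0.188). It sits 1264 bp from a common region with a difference of −1.45. Of the 9 regions specific to shNC, the 3 farthest from the gene had unequal libraries under shG8d. The region at 483381 bp had 269 and 130 under shG8d and 314 and 218 under shNC, which overlap.

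ACTR3BP2, a pseudogene related to the actin-related protein genes of the Arp2/3 complex, had the largest median difference between the pairs. It was 1.69 over 21 regions, shallower minus deeper, the highest of 726 genes with at least 10 regions. The other 5 neighbourhoods ranked 2 (LOC441666), 3 (ANKRD30BL), 6 (FAM74A1), 7 (POTEA) and 8 (CWH43). The symbols were chosen by this shift, so high ranks follow from the choice and nothing is read from them. All 12 common regions had differences below 0 and 10 were called lower. The region at 196037 bp had 182 and 232 under shG8d and 767 and 869 under shNC, and the region at 146774 bp had 65.6 and 77.5 against 289 and 325. The labels do not overlap in either region, and the differences were −1.99 (SE 0.168) and −2.09 (SE 0.191). Common regions at 91153 bp (difference −0.03) and at 78944 bp on the other side of the TSS (difference −0.45) were not called. The 4 strongest common regions lay farther out, between 140265 and 196037 bp, and all 4 were called.

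Within that stretch of ACTR3BP2 the sets alternate. The 5 regions specific to shG8d, between 168636 and 195297 bp, were all called higher under shG8d. The one at 176450 bp had 259 and 341 under shG8d and 45.4 and 62.9 under shNC (difference 2.45, SE 0.217), and the one at 191406 bp had 455 and 485 against 133 and 157 (1.69, SE 0.170). Each of the 5 lies between 740 and 1905 bp from a common region called lower under shG8d. For example, the region at 195297 bp, with 367 and 426 under shG8d and 85.8 and 107 under shNC, lies 740 bp from the common region at 196037 bp. Read by label the 2 regions differ in opposite directions, and read by library the shallower pair is higher in both. Of 4 regions specific to shNC, those at 152194 and 171748 bp were called higher under shG8d, at 144 and 161 against 58.1 and 57.3 for the second. The region at 100568 bp had 4.83 and 29.3 under shG8d and 29.5 and 34.7 under shNC and was not called.

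ANKRD30BL carried a compact cluster. Of its 15 regions, 13 lie between 1295 and 23360 bp upstream of one of its start sites, and 12 of these 13 were called higher in the shallower pair. All 13 ranked in the top 10% of signal of their set. The common region 3421 bp upstream had 188 and 168 under shG8d and 651 and 646 under shNC (difference −1.86, SE 0.161). The region 23360 bp upstream had 600 and 656 against 1134 and 950 (−0.73, SE 0.159). Both regions are lower under shG8d without overlap, and they have the largest and the smallest difference among the 6 common regions of the cluster. Among regions specific to shG8d, the one 13770 bp upstream had 869 and 810 under shG8d and 188 and 207 under shNC (2.08, SE 0.158). The one 4572 bp upstream had 515 and 497 against 85.0 and 127 (2.27, SE 0.191). Regions specific to shNC at 12870 and 21162 bp upstream were also higher under shG8d, at 506 and 457 against 207 and 189, and at 461 and 498 against 254 and 233. These last regions bear the name of the control set but have the higher counts in the columns labelled shG8d.

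The region annotated as the MIR663B promoter went the other way. Its nearest start site, 282 bp away, is that of an ANKRD30BL transcript, and it is specific to shNC. It had 338 and 202 normalized counts under shG8d and 414 and 387 under shNC, so the libraries labelled shG8d differ from each other but do not overlap those labelled shNC. The difference was −0.61 (SE 0.200), higher in the deeper pair, and it ranged from −0.99 to −0.24 over the alternatives, 6 of 10 of which called it lower. A common region 2063 bp from the MIR663B start, assigned to that gene, had 1091 and 1120 under shG8d and 1624 and 1352 under shNC (difference −0.42, SE 0.161, limma adjusted p = 0.0638). The sign by physical library is thus opposite in the 2 regions. The MIR663A promoter region, 187 bp upstream of its start, had 1399 and 1290 under shG8d and 1136 and 706 under shNC (0.58, SE 0.190, limma adjusted p = 0.0318). Its libraries labelled shNC differ by more than those labelled shG8d. The MIR663A call did not hold without the deeper pair's A (limma adjusted p = 0.248) or its B (0.133), without the shallower pair's B (0.188) or with equal library totals (0.348).

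CWH43 is the largest neighbourhood, with 31 regions, and was called in both directions. Of 15 common regions 11 were called lower and 1 higher under shG8d, and all 4 regions specific to shG8d were called higher. The region at 309279 bp, specific to shG8d, had the largest difference of all 115, with 393 and 363 under shG8d and 55.5 and 50.03 under shNC (2.82, SE 0.190). The common region at 330289 bp had 156 and 166 under shG8d and 534 and 476 under shNC (−1.64, SE 0.165). It lies 818 bp from a region specific to shG8d at 331107 bp, with 324 and 340 under shG8d and 83.3 and 93.6 under shNC (1.90, SE 0.181). The block from 259881 to 342849 bp held 13 regions, 11 of them called higher in the shallower pair. Closer to the gene, in 5 regions upstream of the TSS from 15589 to 36361 bp and 2 regions at 121741 and 162841 bp downstream, 2 of 7 were called, both higher in the shallower pair.

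In CWH43, 3 called regions were instead higher in the deeper pair. The common region at 562282 bp had 314 and 241 under shG8d and 68.9 and 43.4 under shNC (difference 2.31, SE 0.230). The region at 259881 bp, specific to shNC, had 45.9 and 24.6 under shG8d and 214 and 185 under shNC (−2.53, SE 0.266). The region at 508441 bp, also specific to shNC, had 44.7 and 30.5 against 97.6 and 107 (−1.45, SE 0.267). None of the 3 overlaps between labels. The region at 562282 bp is the farthest of its block from the gene, and those at 259881 and 508441 bp are the nearest of theirs.

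**Figure D3:**
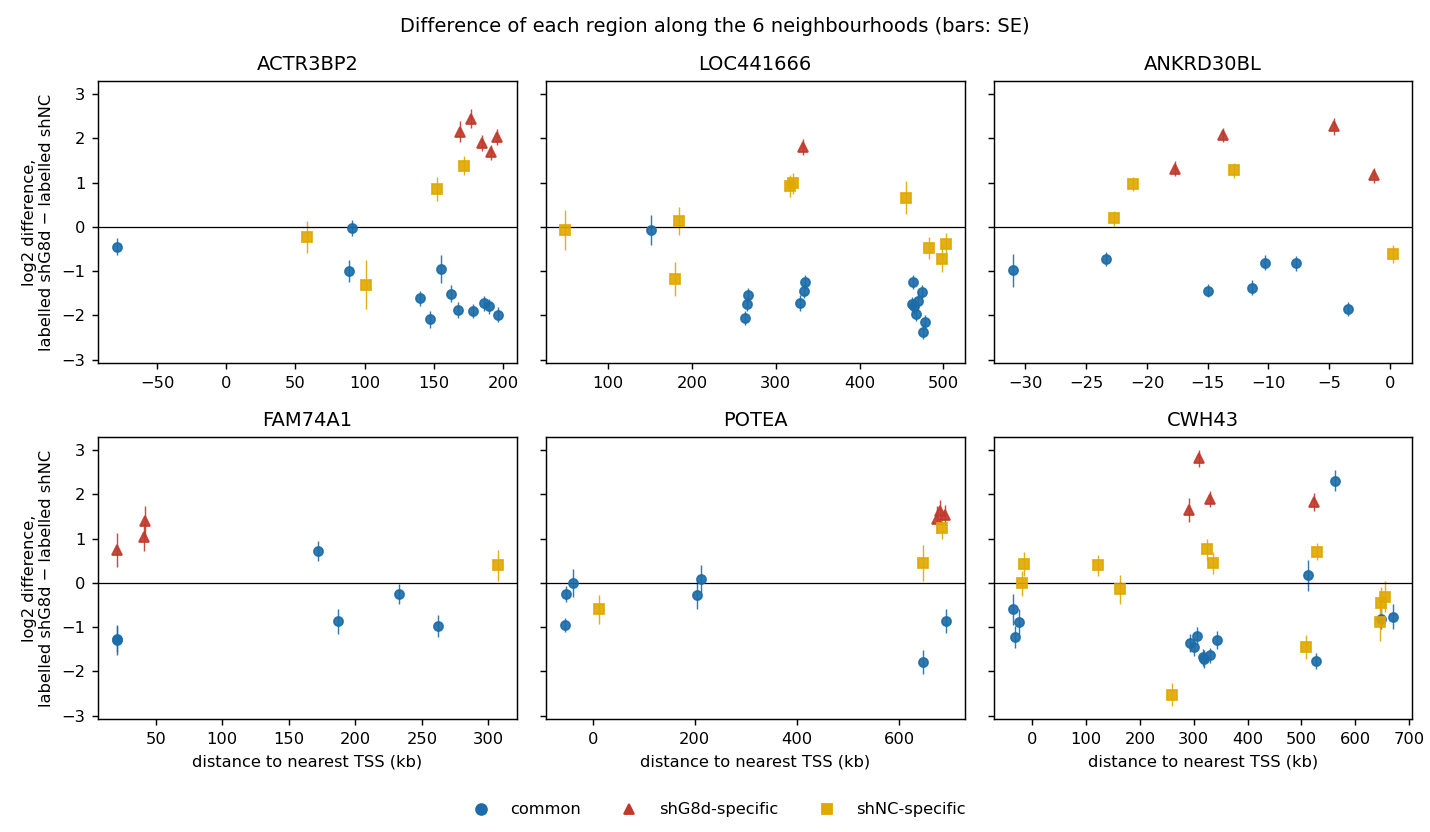
Log2 difference (labelled shG8d minus labelled shNC, bars are SE) of each region against its distance to the nearest TSS in kb, 1 panel per neighbourhood and 1 symbol per region set. Distances in a panel may run from different start sites of a gene. The middle quartiles of the common regions run from −1.73 to −0.81, while regions specific to shG8d lie between 0.74 and 2.82.

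POTEA had 3 of 7 common regions called lower under shG8d, and all 3 regions specific to shG8d called higher. The most distant block, from 646380 to 691041 bp, held 7 regions, of which 6 were called higher in the shallower pair. Its common region at 646380 bp had 33.7 and 62.9 under shG8d and 149 and 176 under shNC (−1.79, SE 0.264). Its shG8d-specific region at 689796 bp had 134 and 153 against 49.7 and 47.6 (1.54, SE 0.225). The intronic region at 12769 bp, inside the gene and specific to shNC, had 31.4 and 25.8 under shG8d and 47.1 and 40.3 under shNC (−0.60, SE 0.325) and was not called. Upstream of the gene, the region at 54589 bp was the strongest of POTEA, with 564 and 495 under shG8d and 1075 and 975 under shNC (−0.95, SE 0.156). The region 52673 bp upstream, close by, had 150.6 and 155 against 184 and 180 (−0.25, SE 0.180) and was not called.

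FAM74A1 had the weakest signal, with a median of 66.6 over 6 common regions, below the 81.5 of all common regions. Of these 6, 4 were called lower and 1 higher under shG8d. Common regions at 20809 and 21114 bp had 23.6 and 21.8 under shG8d and 42.3 and 76.2 under shNC, and 37.0 and 24.2 against 79.7 and 68.0. Neither region overlaps between labels (differences −1.29, SE 0.345, and −1.27, SE 0.301). A region specific to shG8d, at 20976 bp, had 27.8 and 41.0 under shG8d and 24.4 and 16.1 under shNC (0.74, SE 0.384) and was not called. The region at 171543 bp was the exception, with 118 and 128 under shG8d and 88.2 and 63.3 under shNC (0.71, SE 0.226). Its call was kept in 6 of 10 alternatives.

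Regions at like distances recur at copies of FAM74A1. These were chosen after their values were seen. FAM74A3 had a common region at 21343 bp with 32.8 and 31.5 under shG8d and 66.4 and 78.5 under shNC (−1.14, SE 0.283, limma adjusted p = 0.00757). FAM74A6 had one at 21248 bp with 31.1 and 37.1 against 47.1 and 65.6 (−0.69, SE 0.305, limma adjusted p = 0.105). A shG8d-specific region of FAM74A7 at 41217 bp had 53.2 and 48.0 under shG8d and 25.2 and 24.2 under shNC (1.002, SE 0.321, limma adjusted p = 0.0295), beside shG8d-specific regions of FAM74A1 at 41005 and 41656 bp (1.03 and 1.39). The FAM74A7 call did not hold without the deeper pair's A (limma adjusted p = 0.130), its B (0.137) or the shallower pair's A (0.0547). Since the accession of a gene may sit at several copies, these distances may not all run from one place.

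The rule did not name annotation or distance to a TSS. It took pericentromeric and duplicated neighbourhoods with many regions, so the position of their regions is not independent of the choice. Position and annotation are given as a description. Level was not used by itself, but as a mean over the 4 libraries it includes the difference that chose them. Of the 115 regions, 112 were intergenic (97.4%, against 37.3% of all regions), 2 intronic and 1 at a promoter. The median distance to a TSS was 196037 bp, against 17895 bp over all regions, and 70.4% lay beyond 100 kb, against 14.4%. In ANKRD30BL, by contrast, 0 of 15 lay beyond 100 kb. The median common region ranked at percentile 93.7 of signal, the median region specific to shG8d at 99.3 and that specific to shNC at 91.1. In common regions the member medians under shG8d, the lower side, were 119 and 130, against 77.4 and 77.5 over all common regions. Under shNC they were 272 and 288, against 82.1 and 82.0. FAM74A1 is the exception in level, with 0 of 10 regions in the top 10% of a set. By level, and as a description of regions chosen by the same difference, the 19 common regions under 100 normalized counts had a median difference of −0.87 with 9 called lower, the 20 between 100 and 300 had −1.41 with 16 lower, and the 23 at 300 or more had −1.73 with 23 lower. Over all common regions of these levels the medians were −0.22, 0.04 and 0.28, with 14.9%, 14.9% and 20.1% called lower. Nothing is read from this contrast.

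Neighbouring regions of different sets are set side by side as a description. Each of the 20 regions specific to shG8d was paired with the nearest common region of the same gene and start site, at a median gap of 1665 bp. In 20 of 20 pairs the labels gave opposite signs and the same physical pair of libraries, the shallower one, was higher in both regions. The choice of members and the sets nearly fix this, since 2738 of all 2755 shG8d-specific regions were above 0 and 58 of the 62 common member regions below 0. The shNC-specific regions were less uniform, with the same libraries higher in 18 of 32 pairs at any distance and in 8 of 10 pairs within 5 kb. The shNC-specific regions lay farther from a common region, at a median gap of 7535 bp.

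Agreement between the libraries of a pair was not named in the rule. A shift between pairs is clearer where the libraries of a pair agree, so this agreement is not independent of the choice. In common regions the median absolute log2 difference between A and B was 0.15 in the shallower pair and 0.16 in the deeper pair, against 0.25 and 0.20 over all common regions. The spread was not compared at equal level, and the common member regions had a median of 200 normalized counts against 81.5 over all common regions. In regions specific to shNC it was 0.55 in the shallower pair and 0.21 in the deeper pair, against 0.43 and 0.25 over that set. There A exceeded B in the shallower pair in 11 of 12 regions of CWH43, 8 of 9 of LOC441666 and 25 of 33 in all, and in the deeper pair in 10 of 12, 7 of 9 and 26 of 33. Over that whole set A exceeded B in 11611 regions in the shallower pair and 11147 in the deeper pair, of 21459. The region of CWH43 at 336329 bp had 199 and 109.0 under shG8d and 107 and 108.9 under shNC. Its libraries labelled shG8d lie farther apart than the means of the labels.

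Other duplicated or pericentromeric genes, a list of 111 symbols with relatives of the members and not used by the rule, did not move as one. Regions were found at 66 of them, 244 in all. In common regions 39 of 158 were called lower under shG8d (15.0% of all common regions were) and 15 higher (10.7% were), with a median difference of −0.27 against −0.12. Of 20 regions specific to shG8d 17 were called higher (70.0% of that whole set were), at a median of 1.82 against 1.20. Of 66 specific to shNC 5 were called lower (13.2% of that set were) and 3 higher (0.979% were). Without the deeper pair's A the common counts were 23 lower and 7 higher, and without its B 21 and 9. Without the shallower pair's A 24 common regions were called higher and 11 shNC-specific regions lower, and without either deeper library those lower calls were 1 and 2. With equal library totals 78 common regions were called lower and 8 higher, and 4 shNC-specific regions lower and 7 higher. That scaling moved the whole table too. Of all 33913 common regions it called 12414 lower and 1359 higher. Of all 21459 shNC-specific regions it called 1220 lower and 1355 higher.

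ANKRD26P1, an ankyrin repeat pseudogene on chromosome 16, had 5 of 6 regions called, all higher in the shallower pair. Its common region at 211442 bp had 109 and 119 under shG8d and 389 and 376 under shNC (−1.73, SE 0.172, limma adjusted p = 2.08e-06). Its shG8d-specific region at 207808 bp had 239 and 211 against 49.7 and 41.2 (2.29, SE 0.214, limma adjusted p = 1.12e-06). FRG2B on chromosome 10 had a common region with 360 and 328 under shG8d and 1415 and 1411 under shNC (−2.04, SE 0.153, limma adjusted p = 1.98e-07), and LOC654342 on chromosome 2 had one with 578 and 619 against 1352 and 1508 (−1.25, SE 0.156, limma adjusted p = 2.96e-05). ANKRD20A2 on chromosome 9 had a shG8d-specific region with 185 and 203 under shG8d and 33.7 and 42.0 under shNC (2.33, SE 0.227, limma adjusted p = 1.66e-06). MIR663B had, besides the common region above, a shG8d-specific region with 53.2 and 85.5 under shG8d and 10.9 and 13.7 under shNC (2.37, SE 0.366, limma adjusted p = 0.000272), named after its values were seen.

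The 2 strongest regions of that list moved in the opposite direction. An intronic region 653 bp from the start of RGPD2, a RANBP2-like gene on chromosome 2, had 11113 and 8138 under shG8d and 2776 and 1323 under shNC (2.31, SE 0.264, limma adjusted p = 1.07e-05). A region 497975 bp from TPTE on chromosome 21, a testis-expressed phosphatase-like gene, had 6007 and 4924 under shG8d and 1178 and 513 under shNC (2.80, SE 0.256, limma adjusted p = 8.79e-07). Both are common regions without overlap, so the deeper pair is higher there, and both calls were kept in each of the 10 alternatives. Calls at close relatives of the members are listed here, where 13697 of all 58127 regions were called. Among relatives of POTEA, 0 of 2 regions of POTEB, 1 of 3 of POTEB3 and 1 of 3 of POTEC were called. The POTEC call was lost with equal library totals (limma adjusted p = 0.132). Among copies of FAM74A1, 1 of 1 region of FAM74A3, 0 of 1 of FAM74A6 and 1 of 6 of FAM74A7 were called. Of 5 common regions of ANKRD30A 1 was called, higher under shG8d (limma adjusted p = 0.0108), but its adjusted p was 0.0503 when library A of the deeper pair was left out, 0.156 when B was left out and 0.0569 with equal library totals. None of 4 regions of ANKRD30B was called. Among relatives of ACTR3BP2, 0 of 2 regions of ACTR3B, 1 of 7 of ACTR3 and 1 of 3 of ACTR3C were called. Both regions, of ACTR3 and ACTR3C, are named after their values were seen. The ACTR3 region was lower under shG8d (−0.91, limma adjusted p = 0.0472), with an adjusted p of 0.479 when library B of the deeper pair was left out and 0.0596 when B of the shallower pair was. The ACTR3C region, common and intronic, had 489 and 340 under shG8d and 137 and 43.4 under shNC (2.39, SE 0.326, limma adjusted p = 8.81e-05), and was called in each of the 10 alternatives.

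Named genes that flank the neighbourhoods were a second list. It was meant to hold ordinary sequence, but its zinc finger genes on chromosome 10, such as ZNF33A and ZNF33B, are themselves near copies. Of 34 such genes, 29 had 101 regions. In common regions 12 of 59 were called higher under shG8d (10.7% of all common regions were) and 10 lower (15.0% were), with a median difference of 0.03 against −0.12. The common promoter regions of DCUN1D4, HGSNAT and GPR39 were called higher under shG8d. Those of FRYL, FNTA, OCIAD1, SHB, CSGALNACT2, POMK and RPIA were not called. Among the 10 common regions called lower, an intronic one of POMK had 20.2 and 21.8 under shG8d and 60.4 and 51.6 under shNC (−1.37, SE 0.326, limma adjusted p = 0.00601). It was named after its values were seen. DCUN1D4 near CWH43 had 327 and 319 under shG8d and 181 and 172 under shNC (0.87, SE 0.167, limma adjusted p = 0.00156), and HGSNAT, a lysosomal enzyme gene near POTEA, had 151.5 and 161 against 78.5 and 69.1 (1.07, SE 0.206, limma adjusted p = 0.00152). A region 27218 bp upstream of SHB on chromosome 9 had 214 and 166 against 67.7 and 63.3 (1.51, SE 0.210, limma adjusted p = 0.000106). At the GPR39 promoter on chromosome 2 the libraries labelled shG8d had 291 and 363 and those labelled shNC 199 and 156 (0.88, SE 0.183, limma adjusted p = 0.00258), a call lost without the deeper pair's B (adjusted p = 0.0792). Without the deeper pair's A 6 common regions were called higher and 4 lower, and without its B 8 and 6. With equal library totals 7 were called higher and 23 lower, where 1359 of all 33913 common regions were called higher and 12414 lower. The balance of directions thus rests on the scaling, in these genes and in the whole table. Of all 21459 shNC-specific regions this scaling called 1355 higher and 1220 lower. Of 8 regions specific to shG8d 6 were called higher (70.0% of that set were), with 0 without the deeper pair's A, 3 without its B and 4 without the shallower pair's B. Of 34 specific to shNC 3 were called in each direction (0.979% of that set were higher and 13.2% lower), with 1 in each without the deeper pair's A, 2 higher and 1 lower without its B, 4 higher and 5 lower without the shallower pair's A, and 6 higher and 1 lower with equal library totals.

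**Figure D4:**
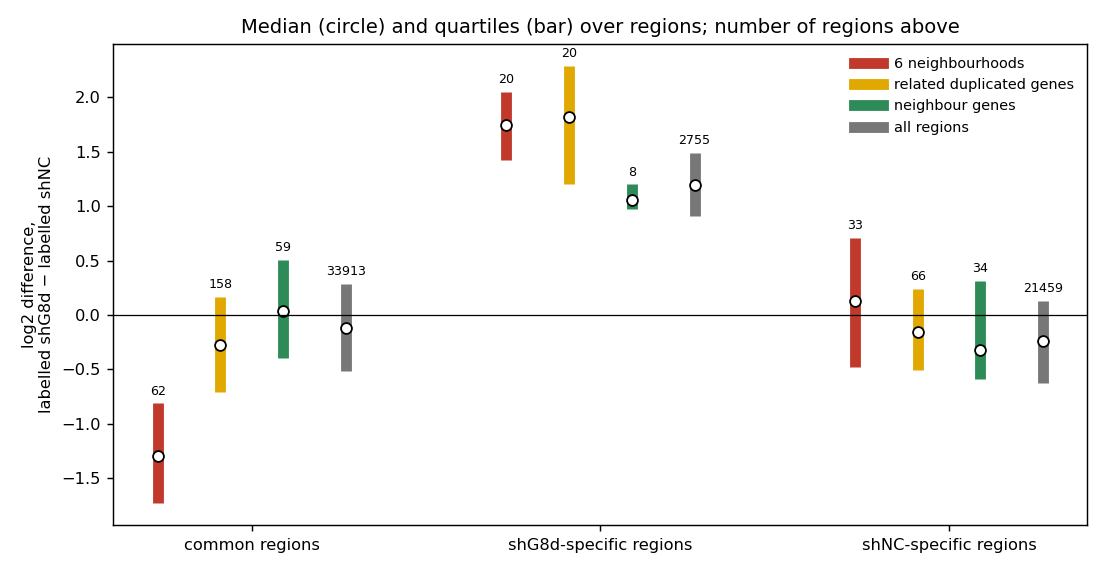
Median (circle) and quartiles (bar) of the log2 difference, labelled shG8d minus labelled shNC, over the regions of the 6 neighbourhoods, of related duplicated genes, of flanking genes and of the whole table, for each region set, with the number of regions above each bar. In common regions the neighbourhoods' median is −1.29, against −0.27, 0.03 and −0.12 for the other groups, and in regions specific to shG8d the neighbourhoods (1.75) and the related genes (1.82) are close together.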

How the data were processed

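CASAVA 1.4 and build hg19 are named in the submitters' processing notes. Not given in the sources used here are the aligner, peak caller, scaling and treatment of reads with several matches. Per the file headers, the authors deposited a log10 normalized value per region and library, a log2 fold change and an unadjusted p-value, with annotation, distance to a TSS and symbol. The deposited fold change and p-value were not used. Region coordinates were not used. The antilog of the log10 value was a whole multiple of one step per column and set for 100% of values (within 0.05 reads), and this step identified the libraries. log2(normalized count + 1) of all regions was fitted with limma 3.58.1 (R 4.3.3, trend, Benjamini-Hochberg, threshold 0.05), without a block. A filter of 10 normalized counts in 2 libraries removed 0 regions. The test was run on simulated data with the same noise setting in all regions and libraries. The real libraries differ in spread, so no error rate is taken from that run. A count test was planned only for deposited counts. The deposited unit is log10, so none was run, although reads could be recovered. Alternatives were other pseudocounts, no filter, equal library totals, a replicate block, each library left out and limma voom. Read shares have 95% Wilson intervals. Members and lists were chosen with earlier results of these data known. Named regions are all of a gene and set where there are 6 or fewer, otherwise the strongest and most different. From longer sets a selection is printed. For lists they are the 5 strongest and the 5 with the smallest adjusted p.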

Additional observations from a re-analysis of the deposited data

How the results depend on the processing

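Among the 6 neighbourhoods no called region changed sign in 10 alternatives, and 61 of 82 were called in each. The alternative without a filter equals the main fit, since the filter removed 0 regions, so it could not lose a call. With equal library totals the median difference became −1.64 in common regions (from −1.29) and 1.11 in specific regions (from 0.76), while the median of all common regions moved to −0.47 from −0.12, and 13773 common regions were called in place of 8716. Leaving out one library gave 42 to 50 called common and 24 to 39 called specific regions of the neighbourhoods, with medians of −1.36 to −1.34 and 0.80 to 0.85. Over all regions it gave 2933 to 11895 common calls (main 8716) and 1696 to 7258 specific calls (main 4981), for related duplicated genes 46 to 102 (main 79) and for flanking genes 12 to 43 (main 34). The low ends came without the deeper pair's A (2933, 1696, 46 and 12) and its B (3954, 2248, 50 and 20). A fit with letters A and B as replicate block gave 51 common and 36 specific calls in the neighbourhoods, with 8 shNC-specific regions called lower in place of 4. Same-lettered libraries did not deviate together over all regions (correlation −0.0039), but did so weakly over the 33 shNC-specific regions of the neighbourhoods (0.22). The labels do not say that a letter marks a shared batch, so letters were not taken as pairs. Pseudocounts of 0.5 and 10, no filter and limma voom on recovered reads (chosen after seeing the data) left every summary within 1.5 times or 1 SD. The edgeR alternative was planned only for deposited counts and was not run, although the recovered reads would have allowed it. With 2 libraries a group and a median region of 56.9 normalized counts, small differences in weak regions were not detectable at this depth.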
